A study of Mus musculus with 8 samples.

Results

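Phosphatidylcholine, the main phospholipid of membranes and of the lipoproteins that carry fat out of the liver, is made along converging routes, and 10 genes of these routes and of the methyl cycle that feeds 1 of them were followed in mouse liver. They are *Pemt*, *Gnmt*, *Mat1a*, *Bhmt*, *Ahcy*, *Cbs*, *Chka*, *Pcyt1a*, *Pcyt2* and *Cept1*, taken by name from the 45706 genes of the deposited count table, and all 10 were among the 15491 genes that passed a filter on low counts. The data are RNA-seq counts of 8 livers from male mice of the strain given as C56B6/J, 4 with the genotype label Srsf10KD and 4 labelled WT. At 6 weeks of age the first group received by tail vein an adeno-associated virus (AAV serotype 2/8) that carries a mirE/shRNA against *Srsf10*, an RNA-binding splicing factor, and the *Ctrl* group received the same vector with a control mirE/shRNA. Both groups were placed 4 weeks later on a high-fat diet (60% of calories from fat) for 12 weeks, so no liver here is from a mouse on control diet. The vector uses the chicken β-actin promoter, which is active in many cell types, so its restriction to liver rests on the virus. The comparison asks how the liver transcriptome differs when this vector targets *Srsf10* during the diet.

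Phosphatidylcholine is built from choline by the CDP-choline pathway, in which choline is phosphorylated, activated with CTP and joined to diacylglycerol. Liver has a further route, in which PEMT adds methyl groups to phosphatidylethanolamine, itself made by the parallel CDP-ethanolamine pathway. The methyl groups come from S-adenosylmethionine, which is made from methionine and leaves S-adenosylhomocysteine behind, and the homocysteine freed from that is either remethylated or drained towards cysteine. The liver is the main site of this cycle, and disturbed methyl supply or phosphatidylcholine synthesis is a known setting of fatty liver.

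Libraries held between 50456404 and 59697241 counted reads, and levels are given as CPM, counts scaled to a common depth with TMM factors. *Srsf10* RNA was at 36.4 ± 3.24 CPM (SD, n = 4) with the label *Srsf10-kd* and at 32.9 ± 1.99 CPM (SD, n = 4) in *Ctrl* (log2 fold change 0.15, edgeR quasi-likelihood adjusted p = 0.378). As it was not lower, groups are named by their labels. Among lists of cell type markers, 7 of 8 hepatocyte markers were found in the table and summed to 76200 to 110000 CPM in every liver, against 161 to 292 CPM for 8 macrophage and Kupffer cell markers. The 8 stellate cell and fibroblast markers summed to 177 to 299 CPM, the 8 endothelial markers to 230 to 294 CPM and the 5 lymphocyte markers to 1.76 to 3.21 CPM. None of these marker genes was at 0 in all livers. The 6 cholangiocyte markers summed to between 46.9 and 69.2 CPM with the label *Srsf10-kd* and to between 31.8 and 39.3 CPM in *Ctrl*, the 5 red blood cell markers to 294 to 800 CPM and 292 to 380 CPM, the 10 pericentral hepatocyte markers to 11700 to 12700 CPM and 13100 to 14600 CPM, and the 10 periportal markers to 7760 to 10000 CPM and 8800 to 15700 CPM. The cholangiocyte and pericentral sums thus differed between the groups without overlap, as 14.3% of single genes tested did. At an unadjusted p under 0.05 in edgeR, 4 of the 6 cholangiocyte markers were higher and 0 lower. Of the 10 pericentral markers 3 were lower and 0 higher, against 10.6% lower and 11.2% higher of all genes tested. A sum follows its most abundant markers and need not hold for each of them. The part of these sums in the results below was not tested. In bulk tissue, fewer cells of a type and less RNA per cell cannot be told apart. Libraries also differed in a trend with transcript length, with slopes of log2 CPM on log2 length, relative to the mean of the 8 livers, of -0.18 in *Srsf10-kd* 3, -0.06 to -0.02 in the other livers labelled *Srsf10-kd*, -0.03 in *Ctrl* 3 and 0.09 to 0.13 in the other *Ctrl* livers.

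None of the 10 genes passed an adjusted p of 0.05 between the groups in edgeR's quasi-likelihood test over all genes, where 11 of 15491 genes (0.071%) did. One gene, *Pcyt1a*, which encodes the main regulated enzyme of the CDP-choline pathway, had an unadjusted p under 0.05 in that test, against a background of 21.8% of all genes tested (10.6% lower and 11.2% higher). *Pcyt1a* was also the single member whose 4 livers labelled *Srsf10-kd* all lay to one side of the 4 *Ctrl* livers, which 14.3% of the tested genes did (7.53% lower and 6.73% higher). It passed with limma-voom, as 11.7% of genes did, and not with DESeq2, where 5.21% did. Of the 10 genes 4 had positive and 6 negative log2 fold changes, with a median of -0.06, against a median of 0.01 over all genes tested. The shares among these genes are near or below those of the whole transcriptome.

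**Figure D1:**
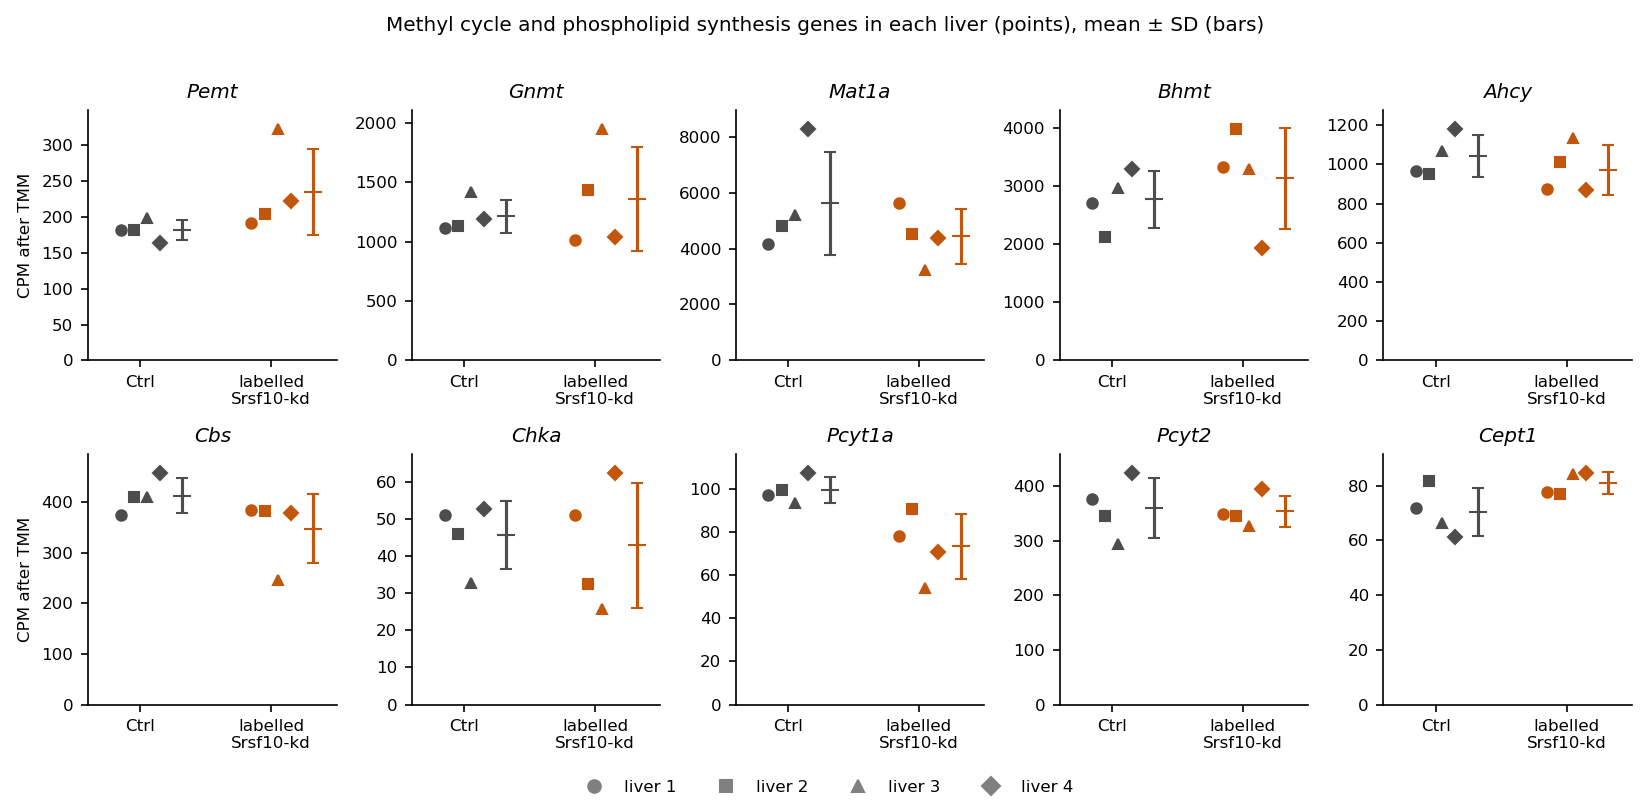
Level of each of the 10 genes in CPM (linear axis from 0) in the 4 *Ctrl* livers (grey) and the 4 livers labelled *Srsf10-kd* (orange), with marker shapes for the liver number and bars for mean ± SD. The groups are apart only for *Pcyt1a*, and *Srsf10-kd* 3 (orange triangle) lies at an end of the range for 6 of the 10 genes.

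The promoters of *Pcyt1a* and *Pemt* are shown because these genes belong to different routes to phosphatidylcholine and the groups do not overlap in their ratio, given further on. With the length trend removed the groups do overlap in that ratio. Each window runs from 250 bases before to 50 after an annotated start in RefSeq's sequence of GRCm38.p6, is written 5′ to 3′ on the gene's strand, and has in capitals every GGGCGG, the GC box bound by Sp1-type factors, on either strand. That of *Pcyt1a* is chr16:32430671-32430970 on the plus strand and that of *Pemt* chr11:60036956-60037255 on the minus strand.

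Pcyt1a: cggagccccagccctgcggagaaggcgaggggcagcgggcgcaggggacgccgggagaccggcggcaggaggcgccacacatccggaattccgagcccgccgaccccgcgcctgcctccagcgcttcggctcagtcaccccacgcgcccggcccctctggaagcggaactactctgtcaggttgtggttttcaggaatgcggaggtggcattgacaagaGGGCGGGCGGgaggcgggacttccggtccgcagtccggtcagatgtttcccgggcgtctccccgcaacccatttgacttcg

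Pemt: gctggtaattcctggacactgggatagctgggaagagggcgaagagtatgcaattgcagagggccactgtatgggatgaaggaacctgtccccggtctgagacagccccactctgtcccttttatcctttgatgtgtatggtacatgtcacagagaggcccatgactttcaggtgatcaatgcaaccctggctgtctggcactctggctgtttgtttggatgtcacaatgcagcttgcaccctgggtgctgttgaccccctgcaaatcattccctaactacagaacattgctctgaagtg

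The *Pcyt1a* window holds 2 overlapping GC boxes and 69.7% G and C, and the *Pemt* window holds 0 and 51.7%. Over the 32851 promoter windows of the table the median is 52.7%, and 35.7% hold at least 1 GC box. Windows were found for 8 of the 10 genes, 13 in all, and not for *Mat1a* and *Pcyt2*. GC boxes were also found in windows of *Ahcy*, *Cbs*, *Chka* and *Cept1*. The sequence CCAAT, on either strand, occurs in at least 1 window of *Pemt*, *Gnmt*, *Bhmt*, *Ahcy*, *Cbs*, *Chka* and *Cept1* and in 37.4% of all windows, and CACGTG occurs in that of *Cbs* and in 7.15%. TATAAA occurs in none of the 13 windows and in 13.6% of all. Some genes have several windows, so the lists of genes are not on the same scale as the shares of all windows. These are matches of letters within 300 bases and not binding sites. Of the 3 windows of *Pcyt1a* the most upstream is printed, and of the 2 of *Pemt* the downstream one. Of the unprinted windows of *Pcyt1a*, that from 32430770 overlaps the printed one and holds the same 2 GC boxes. The other holds 0 GC boxes, as does the unprinted window of *Pemt*.

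*Pcyt1a* (ENSMUSG00000005615, chromosome 16 from 32430921 to 32475070, plus strand) encodes CCT alpha, the enzyme that activates phosphocholine with CTP. Its level was 78.2, 90.5, 54.0 and 70.5 CPM in livers 1 to 4 labelled *Srsf10-kd*, and 97.3, 99.5, 93.3 and 107 CPM in *Ctrl* 1 to 4. The groups did not overlap, though the highest liver labelled *Srsf10-kd* and the lowest *Ctrl* liver are close, and *Srsf10-kd* 3 is the lowest of the 8. Group means were 73.3 ± 15.3 CPM (SD, n = 4) against 99.4 ± 5.93 CPM (SD, n = 4). In edgeR the log2 fold change came to -0.44 (standard error 0.15, 95% interval -0.77 to -0.10, adjusted p = 0.161), and a two-sided exact permutation test of log2 CPM gave p = 0.0286, the smallest that 4 livers against 4 allow. The adjusted p was 0.0365 with limma-voom (log2 fold change -0.39) and 0.0945 with DESeq2. After correction of each library for its length trend, edgeR gave -0.31 (adjusted p = 0.273), and without *Srsf10-kd* 3 it was -0.32. On the opposite strand, *Slc51a* and *2210020O09Rik* overlap 9.09% of the merged exons of *Pcyt1a*, and *Slc51a* had at most 39 counts in a liver against at least 2777 for *Pcyt1a*.

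*Chka* (ENSMUSG00000024843, chromosome 19 from 3851773 to 3894369, plus strand) encodes choline kinase alpha, which starts the CDP-choline pathway. It was at 51.3, 32.6, 25.7 and 62.6 CPM in livers 1 to 4 labelled *Srsf10-kd* and at 51.2, 46.2, 32.8 and 52.9 CPM in *Ctrl* 1 to 4. Low and high livers occurred in both groups, and the highest and lowest of the 8, which differ 2.43-fold, were both labelled *Srsf10-kd*. With edgeR the groups differed by -0.09 on the log2 scale (standard error 0.27, 95% interval -0.68 to 0.51, adjusted p = 0.857). Its SD of log2 CPM within groups, 0.47, is above that of 94.3% of the 3779 tested genes with a mean log2 CPM of at least 5, whose median is 0.20. Livers thus differed more in *Chka* than in most genes of such abundance, and the labels did not separate them.

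*Pcyt2* (ENSMUSG00000025137, chromosome 11 from 120610087 to 120617936, minus strand) encodes the counterpart of CCT alpha in the CDP-ethanolamine pathway, which activates phosphoethanolamine. Its level was 348, 344, 327 and 395 CPM in livers 1 to 4 labelled *Srsf10-kd* and 376, 345, 293 and 424 CPM in *Ctrl* 1 to 4. The lowest and the highest liver were both *Ctrl*. In edgeR the log2 fold change came to -0.02 (standard error 0.13, adjusted p = 0.930), with a 95% interval of -0.32 to 0.27 for the difference.

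*Cept1* (ENSMUSG00000040774, chromosome 3 from 106502260 to 106547802, minus strand) encodes a choline/ethanolamine phosphotransferase that can finish both pathways. Its level was 77.6, 77.0, 84.1 and 84.6 CPM in livers 1 to 4 labelled *Srsf10-kd* and 71.7, 81.6, 66.4 and 61.1 CPM in *Ctrl* 1 to 4. *Ctrl* 2 lay among the livers labelled *Srsf10-kd*, while the other *Ctrl* livers lay below all of these. Its log2 fold change came to 0.20 (standard error 0.11, 95% interval -0.05 to 0.45, adjusted p = 0.297 from edgeR). Exons of *Dennd2d* and *Dram2* on the opposite strand overlap 24.9% of its merged exons, and the counts of *Dennd2d* were 8.86% to 14.7% of those of *Cept1*. As the strand setting of the counts is not given, part of the count of *Cept1* is uncertain.

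*Pemt* (ENSMUSG00000000301, chromosome 11 from 59970614 to 60046489, minus strand) encodes phosphatidylethanolamine N-methyltransferase. It was at 191, 204, 322 and 222 CPM in livers 1 to 4 labelled *Srsf10-kd* and at 182, 182, 199 and 163 CPM in *Ctrl* 1 to 4. Only *Srsf10-kd* 1 lay below the highest *Ctrl* liver, which was *Ctrl* 3, and *Srsf10-kd* 3 stood above the other 7. Group means were 234.7 ± 59.8 CPM (SD, n = 4) against 182 ± 14.6 CPM (SD, n = 4). For this gene edgeR gave a log2 fold change of 0.37 (standard error 0.17, 95% interval -0.00 to 0.74, adjusted p = 0.231), with p = 0.0571 in the two-sided exact permutation test. The value was 0.18 when *Srsf10-kd* 3 was left out. When *Ctrl* 3 was left out the groups did not overlap, as in 31.9% of all genes tested. *Pemt* has one of the shorter transcripts (at most 1003 bases), and with the length trend removed edgeR gave 0.07 (adjusted p = 0.759).

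*Gnmt* (ENSMUSG00000002769, chromosome 17 from 46725664 to 46729168, minus strand) encodes glycine N-methyltransferase, which uses up surplus S-adenosylmethionine. Its level was 1012, 1436, 1948 and 1037 CPM in livers 1 to 4 labelled *Srsf10-kd* and 1116, 1128, 1416 and 1193 CPM in *Ctrl* 1 to 4. The highest and the lowest of the 8 were both labelled *Srsf10-kd*. A log2 fold change of 0.16 (standard error 0.21, 95% interval -0.31 to 0.63, adjusted p = 0.649) was obtained with edgeR, and it was negative, at -0.06, without *Srsf10-kd* 3, with limma-voom (-0.03) and with the length trend removed (-0.13).

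*Mat1a* (ENSMUSG00000037798, chromosome 14 from 41105035 to 41124412, plus strand) encodes the methionine adenosyltransferase of adult liver, which makes S-adenosylmethionine. Its level was 5639, 4509, 3243 and 4374 CPM in livers 1 to 4 labelled *Srsf10-kd* and 4159, 4801, 5207 and 8279 CPM in *Ctrl* 1 to 4. *Ctrl* 4 was 2.55-fold above *Srsf10-kd* 3, and the other 6 livers were mixed between the groups. The estimate of edgeR was -0.34 on the log2 scale (standard error 0.24, 95% interval -0.87 to 0.20, adjusted p = 0.404) and -0.09 without *Ctrl* 4.

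*Ahcy* (ENSMUSG00000027597, chromosome 2 from 155059310 to 155074497, minus strand) encodes S-adenosylhomocysteine hydrolase, which clears the product that inhibits methyltransferases. It was at 876, 1010, 1132 and 867 CPM in livers 1 to 4 labelled *Srsf10-kd* and at 967, 949.8, 1067 and 1181 CPM in *Ctrl* 1 to 4. The groups overlapped over most of their range, with a log2 fold change of -0.10 (standard error 0.13, 95% interval -0.40 to 0.20, adjusted p = 0.657 from edgeR), -0.04 without *Ctrl* 4 and -0.18 without *Srsf10-kd* 3. Of the 75-base stretches in its transcripts 65.9% also occur in *Gm4737*, *Gm9826* or *Gm5638*, so reads may be split or lost there. These 3 genes together had 1.75% to 3.25% as many counts as *Ahcy*.

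*Bhmt* (ENSMUSG00000074768, chromosome 13 from 93616675 to 93637961, minus strand) encodes betaine-homocysteine methyltransferase, which remethylates homocysteine with a methyl group from the choline product betaine. Its level was 3333, 3991, 3303 and 1930 CPM in livers 1 to 4 labelled *Srsf10-kd* and 2712, 2129, 2966 and 3292 CPM in *Ctrl* 1 to 4. *Srsf10-kd* 4 was the lowest of the 8 and the other livers labelled *Srsf10-kd* were the 3 highest. Its log2 fold change in edgeR stood at 0.18 (standard error 0.22, 95% interval -0.32 to 0.68, adjusted p = 0.638), at 0.35 without *Srsf10-kd* 4 (adjusted p = 0.317), and at 0.04 without *Srsf10-kd* 2. Of its 75-base stretches 21.6% occur in *Gm5096*, *Bhmt-ps1* or *Gm15622*, whose counts together were 0.501% to 1.30% of those of *Bhmt*.

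*Cbs* (ENSMUSG00000024039, chromosome 17 from 31608894 to 31637238, minus strand) encodes cystathionine β-synthase, which commits homocysteine to cysteine synthesis. It was at 384, 382, 245 and 378 CPM in livers 1 to 4 labelled *Srsf10-kd* and at 374, 411, 410 and 458 CPM in *Ctrl* 1 to 4. Apart from *Srsf10-kd* 3, the livers labelled *Srsf10-kd* lay close together and just above the lowest *Ctrl* liver. The 2 groups differed by -0.25 on the log2 scale (standard error 0.16, 95% interval -0.60 to 0.10, adjusted p = 0.351 from edgeR), -0.11 without *Srsf10-kd* 3, and -0.04 with the length trend removed.

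**Figure D2:**
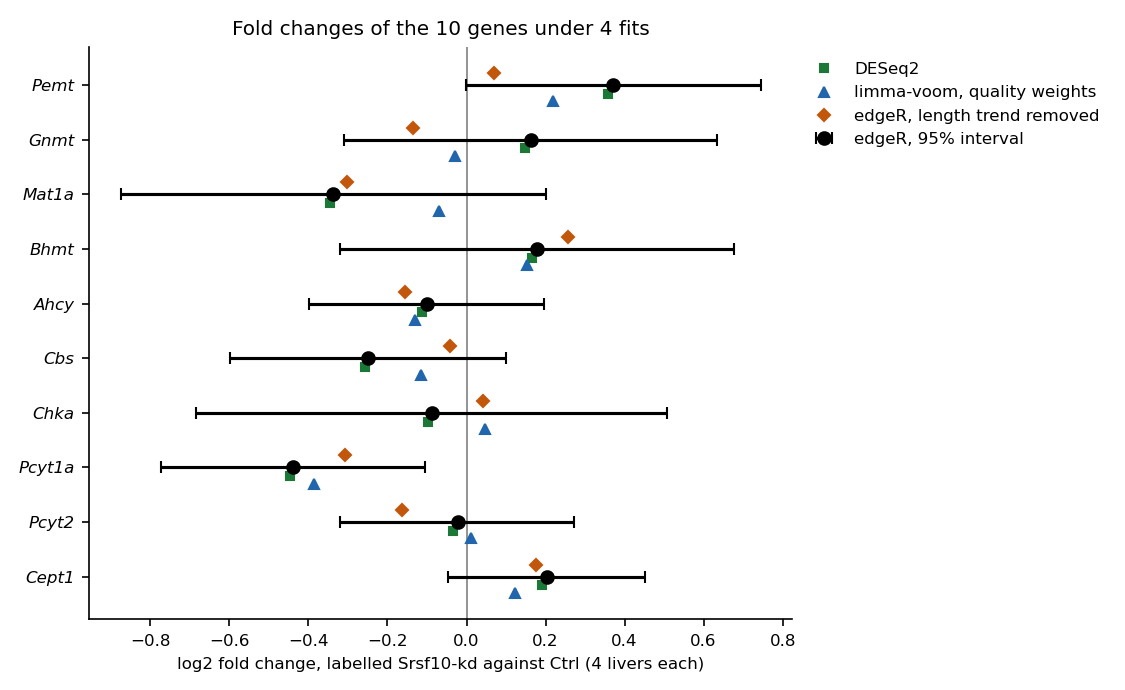
Log2 fold change of each gene, livers labelled *Srsf10-kd* against *Ctrl*, from edgeR with its 95% interval (black), DESeq2 (green squares), limma-voom with quality weights (blue triangles) and edgeR with the transcript length trend removed (orange diamonds). The edgeR interval of *Pcyt1a*, -0.77 to -0.10, is the only one that leaves out 0, and the other fits place *Pcyt1a* between -0.45 and -0.31.

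*Srsf10-kd* 3 and *Ctrl* 4 held most of the extreme values. *Srsf10-kd* 3 was the highest of the 8 livers for *Pemt* and *Gnmt* and the lowest for *Mat1a*, *Cbs*, *Chka* and *Pcyt1a*, and over all genes tested it was the highest or lowest in 56.7%. *Ctrl* 4 was the highest for *Mat1a*, *Ahcy*, *Cbs*, *Pcyt1a* and *Pcyt2* and the lowest for *Pemt* and *Cept1*, against 41.2% of all genes. These livers are also the ends of the length trend, and what part that has in their values was not tested gene by gene beyond the corrected fits. Without *Srsf10-kd* 3 and *Ctrl* 3 together, again 0 of the 10 genes passed edgeR's adjusted p of 0.05, where 1342 of all genes did, and the groups did not overlap for *Pcyt1a* and *Pemt*, against 34.9% of all genes.

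Levels of the 10 genes were compared per length, as RPKM, the CPM per kilobase of merged exons, averaged over the 8 livers. The order was *Mat1a* (1450 RPKM), *Gnmt* (1070), *Bhmt* (514), *Ahcy* (359), *Pemt* (98.9), *Pcyt2* (82.0), *Cbs* (50.8), *Cept1* (24.2), *Pcyt1a* (11.6) and *Chka* (3.69). The first 4 are genes of the methyl cycle, and the last 3 of the CDP-choline pathway. The ranges over the 8 livers overlapped between *Mat1a* and *Gnmt*, between *Bhmt* and *Ahcy* and between *Pemt* and *Pcyt2*, so their order is not fixed, and did not overlap between the other neighbours. Reads from 75-base stretches shared with other genes, 65.9% of those of *Ahcy* and 21.6% of those of *Bhmt*, may be split or lost. The levels of these 2 genes may thus be too low, and their place in the order is uncertain. *Cept1* shares 20.7% and *Pcyt1a* 7.04% of such stretches with genes on the opposite strand. As the strand setting is not given, the levels of *Cept1* and *Pcyt1a* are uncertain too. With the length of the longest transcript in place of merged exons the order of the means was the same, with *Chka* at 9.54 RPKM and *Pemt* at 208 RPKM. On that scale the ranges of *Gnmt* and *Bhmt*, of *Cept1* and *Pcyt1a* and of *Pcyt1a* and *Chka* overlapped too, and those of *Bhmt* and *Ahcy* did not.

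Ratios between genes of 1 liver do not depend on how libraries are scaled, and 5 of them were compared with two-sided exact permutation tests adjusted over the 5. *Pemt* over *Pcyt1a*, the methylation route over the CDP-choline route, was 2.44, 2.25, 5.96 and 3.15 in livers 1 to 4 labelled *Srsf10-kd* and 1.87, 1.83, 2.13 and 1.52 in *Ctrl* 1 to 4. Every liver labelled *Srsf10-kd* was above every *Ctrl* liver, with a mean difference of 0.80 on the log2 scale (1.67 ± 0.64 against 0.87 ± 0.20, SD, n = 4; exact permutation p = 0.0286, adjusted p = 0.143). After removal of the length trend the groups overlapped, with a difference of 0.39 (exact permutation p = 0.0857, adjusted p = 0.286). Without *Srsf10-kd* 3, and with the trend left in, the difference was 0.50. The transcripts of *Pcyt1a* are longer (at most 4789 bases) than those of *Pemt*. Apart from *Ctrl* 3, the slopes on length were positive in *Ctrl* and negative with the label *Srsf10-kd*. Removing the trend may thus also remove a difference between the labels, and for this ratio trend and label cannot be told apart.

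*Pcyt2* over *Pcyt1a*, the activating step of the ethanolamine pathway over that of the choline pathway, was 4.44, 3.81, 6.06 and 5.59 in livers 1 to 4 labelled *Srsf10-kd* and 3.86, 3.46, 3.14 and 3.94 in *Ctrl*. Only *Srsf10-kd* 2 lay within the range of the *Ctrl* livers, and the mean log2 difference was 0.45 (exact permutation p = 0.0857, adjusted p = 0.190), or 0.17 after removal of the length trend (exact permutation p = 0.429). *Gnmt* over *Pemt* differed by -0.23 on the log2 scale (exact permutation p = 0.114, adjusted p = 0.190), with *Srsf10-kd* 2 at 7.05 among *Ctrl* livers of 6.12 to 7.32. *Srsf10-kd* 2 was the liver nearest to *Ctrl* in each of these first 3 ratios. *Bhmt* over *Cbs*, remethylation over loss of homocysteine, differed by 0.42 (exact permutation p = 0.229, adjusted p = 0.286), by 0.22 without *Srsf10-kd* 3 and 0.68 without *Srsf10-kd* 4, and *Mat1a* over *Ahcy* by -0.21 (exact permutation p = 0.486, adjusted p = 0.486). Their groups overlapped.

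Around these 10 genes, 57 other genes of the methionine cycle, folate metabolism, choline oxidation and phospholipid synthesis were examined, of which 56 were tested and *Pcyt1b* did not pass the filter. In edgeR's quasi-likelihood test 0 passed an adjusted p of 0.05, 20 had positive and 36 negative log2 fold changes, and the median was -0.03. With an unadjusted p under 0.05 were 6 lower and 1 higher, 7 of 56, a smaller share than in all genes, and the groups did not overlap in 9 (6 lower and 3 higher, 16.1%), near the 14.3% of all genes tested. DESeq2 gave 2 of them an adjusted p under 0.05 (5.21% of all genes), limma-voom 4 (11.7% of all genes), and edgeR without *Ctrl* 3 gave 3, where it called 544 of all genes. With DESeq2 and limma-voom these are smaller shares than over all genes, and in edgeR without *Ctrl* 3 it is a larger one.

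The other enzyme system that remethylates homocysteine, with folate in place of betaine, held the 2 genes that DESeq2 called. *Mtr*, which encodes methionine synthase, was at 2.84, 2.92, 1.89 and 2.16 CPM in livers 1 to 4 labelled *Srsf10-kd* and at 4.27, 4.30, 3.42 and 5.55 CPM in *Ctrl* 1 to 4. *Mtrr*, which encodes the reductase that reactivates it, was at 6.68, 6.5, 6.09 and 7.09 CPM and at 9.11, 8.68, 8.71 and 9.83 CPM. All livers labelled *Srsf10-kd* were below all *Ctrl* livers for both genes. For *Mtr* edgeR gave a log2 fold change of -0.84 (standard error 0.20, adjusted p = 0.115, 0.00677 from DESeq2 and 0.0126 from limma-voom), and that of *Mtrr* was -0.46 (standard error 0.11, adjusted p = 0.114, 0.00489 and 0.0168). Both passed in edgeR without *Ctrl* 3 (adjusted p = 0.0419 and 0.0485). With the length trend removed they were at -0.55 and -0.39 with adjusted p of 0.187 and 0.181 from edgeR; the transcript of *Mtr*, 8294 bases, is long.

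Of the 4 genes of choline oxidation, which turns choline into betaine and its methyl groups into the folate pool, all had negative log2 fold changes and 2 were without overlap, as were 14.3% of all genes tested. *Chdh*, which encodes choline dehydrogenase and supplies the betaine that BHMT uses, was at 204, 205, 115 and 200.4 CPM in livers 1 to 4 labelled *Srsf10-kd* and at 268, 282, 212 and 285 CPM in *Ctrl* 1 to 4 (log2 fold change -0.53, adjusted p = 0.173 from edgeR, 0.102 from DESeq2 and 0.0296 from limma-voom). With the length trend removed edgeR gave *Chdh* -0.34 (adjusted p = 0.313). *Dmgdh*, which encodes dimethylglycine dehydrogenase and removes the product of BHMT, was at 377, 462, 376 and 335 CPM and at 532, 463, 509 and 507 CPM (log2 fold change -0.37, adjusted p = 0.154 from edgeR, 0.0516 from DESeq2 and 0.0429 from limma-voom). The highest liver labelled *Srsf10-kd* for *Dmgdh* was nearly level with the lowest *Ctrl* liver. *Aldh7a1* and *Sardh* were at -0.07 and -0.09 with overlapping groups, and at 0.02 and 0.03 with the length trend removed.

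*Ahcyl1*, a relative of *Ahcy*, was lower without overlap (log2 fold change -0.34, adjusted p = 0.173 from edgeR). So was *Abcb4*, which encodes the transporter that moves phosphatidylcholine into bile, at 565, 404, 222 and 528 CPM in livers 1 to 4 labelled *Srsf10-kd* against 583, 608, 675 and 892 CPM in *Ctrl* 1 to 4 (log2 fold change -0.68, adjusted p = 0.195 from edgeR). With limma-voom *Abcb4* was at -0.38 (adjusted p = 0.173), and DESeq2 gave an adjusted p of 0.114. *Srsf10-kd* 3 was its lowest liver, and *Srsf10-kd* 1 was close to *Ctrl* 1. *Pisd*, which encodes the mitochondrial enzyme that makes phosphatidylethanolamine from phosphatidylserine, was higher without overlap, at 19.9, 19.8, 24.1 and 22.1 CPM against 18.3, 18.0, 15.6 and 15.1 CPM (log2 fold change 0.36, adjusted p = 0.147 from edgeR), and 20.9% of its merged exons overlap other annotated genes. *Slc44a2*, of a family of choline transporters, and *Gclm*, a subunit of the enzyme that starts glutathione synthesis, were also higher without overlap, at 0.17 and 0.16 with adjusted p of 0.344 and 0.383 from edgeR. The 9 folate genes, the 9 genes of phosphatidylcholine remodelling and breakdown and the 7 small-molecule methyltransferases had 0 members without overlap. Of the methyltransferases 6 had positive log2 fold changes, the highest *Hnmt* at 0.60 and *Inmt* at 0.55 (adjusted p = 0.264 and 0.416 from edgeR).

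The genes closest to a member across the 8 livers were sought for the 3 members that vary most, by the root mean square difference of log2 CPM after each gene's own mean is removed, among 10966 genes with a mean log2 CPM of at least 1. For *Mat1a* these were *Oat*, which encodes ornithine aminotransferase, at 0.07, *Tmem62* at 0.11 and *9330159M07Rik* at 0.13, where the median gene was at 0.41. *Oat* ran from 784 CPM in *Srsf10-kd* 3 to 2160 CPM in *Ctrl* 4, a 2.75-fold range, while *Mat1a* over *Oat* stayed between 3.81 and 4.41 in CPM. *Oat* is among the pericentral markers above, and was at -0.40 between the groups on the log2 scale (edgeR adjusted p = 0.356). The pericentral sum had other extremes, with its highest value in *Ctrl* 3 (14550 CPM). Among livers labelled *Srsf10-kd* that sum was highest in *Srsf10-kd* 3 (12680 CPM). The periportal sum was highest in *Ctrl* 4 (15730 CPM) and lowest in *Srsf10-kd* 3 (7757 CPM), as was *Mat1a*. Over all genes tested, *Ctrl* 4 was the highest liver in 21.2% and *Srsf10-kd* 3 the lowest in 26.9%. A link of *Mat1a* to either zone was not tested. For *Bhmt* the closest were *Slc25a45*, *Slc7a8* and *Slc23a1*, genes of membrane transporters, at 0.19, 0.19 and 0.20 against a median of 0.40. For *Chka* they were *Fbn1*, *Ighmbp2* and *Cyp2d37-ps* at 0.17, 0.17 and 0.18 against a median of 0.46. The match of *Mat1a* and *Oat* was thus closer than any found for *Bhmt* or *Chka*.

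**Figure D3:**
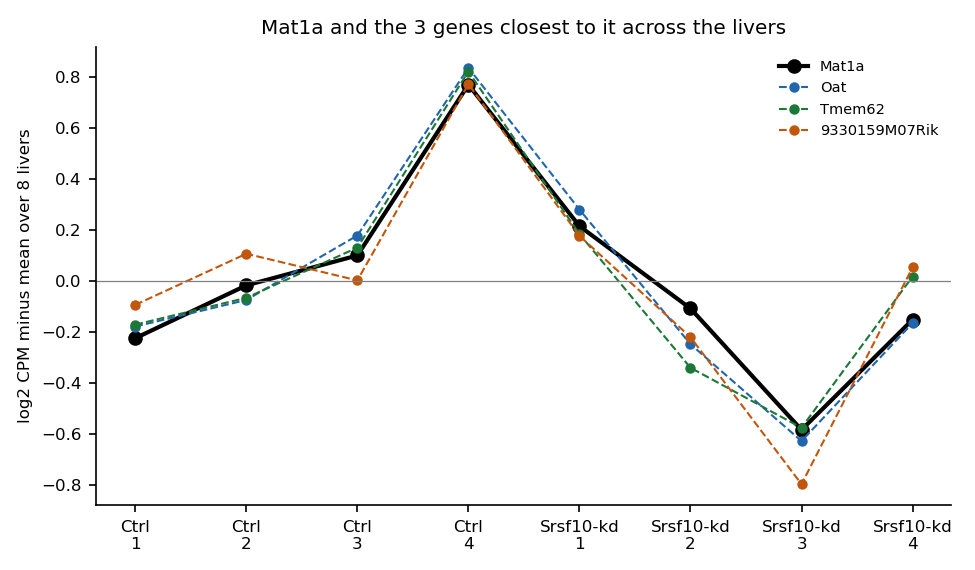
Log2 CPM of *Mat1a* (black) and of the 3 genes closest to it, each minus its own mean over the 8 livers, in *Ctrl* 1 to 4 and *Srsf10-kd* 1 to 4; lines join the livers of a gene for reading only. All 4 genes peak in *Ctrl* 4 and are lowest in *Srsf10-kd* 3, which can follow from the choice of the 3 as closest to *Mat1a*.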

How the data were processed

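Liver RNA of 8 mice was measured. Per the methods of the study, poly(A)-selected directional libraries were sequenced from both ends, and reads were aligned to GRCm38 and counted per gene with STAR 2.7.7a. The authors deposited these raw counts without normalization, 1 column per liver, and the annotation release, strand column and read filters are not given in the sources used here. The p-values measure only the spread between these samples, 1 per mouse. Nothing in the labels says that livers of a group were prepared separately, so technical differences may be part of that spread.

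Counts were analysed in R 4.3.3 with edgeR 4.0.16 (TMM, filterByExpr, quasi-likelihood test on condition alone, two-sided, Benjamini-Hochberg over 15491 genes, threshold 0.05). DESeq2 1.42.0 (the study used DESeq2 in another version) and limma 3.58.1 (voom with sample quality weights) were alternatives, with other scalings and filters, the replicate number as a block, removal of each library's lowess trend (span 0.5) on log2 transcript length, and livers left out. Log2 CPM used a prior count of 2. Intervals are 95% intervals of the edgeR fit. Symbols, positions and lengths come from GENCODE M21 (GRCm38), which matched 45143 of 45706 identifiers. Scripts were tested on simulated data.

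All 10 members are named, and of the pathway genes up to 12 with an adjusted p under 0.05 in edgeR or DESeq2 or groups without overlap. *Aldh7a1*, *Sardh*, *Hnmt* and *Inmt* were named after their values were seen. Likeness covers the 3 most variable members and 3 genes each. Members and lists were chosen with earlier results of these data known. With 50456404 to 59697241 counts per liver and at least 1323 counts of each member, counting error is small beside the spread between livers. Polyadenylation sites were not analysed here.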

Additional observations from a re-analysis of the deposited data

Results flagged for a closer look

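In 48 groups of 4 livers (the 10 members, the 9 named pathway genes and the 5 log2 ratios, in each condition) a liver was sought whose gap to the nearest other liver, over the range of the group, is above Dixon's 95% critical value for 4 values. Chance flags about 1 in 20 groups, and 6 were found. The groups share the same livers, and some share a gene. The pathway genes among them were picked for groups without overlap. No excess over chance can be read from the count. *Cbs* was at 245 CPM in *Srsf10-kd* 3, against 378 to 384 CPM in the other livers of that label. That liver also stood apart for *Chdh*, with 115 CPM where the others had 200.4 to 205 CPM, and for *Ahcyl1*, with 79.9 CPM where they had 104 to 108 CPM. *Gclm* was at 246 CPM in *Srsf10-kd* 2 against 221 to 225 CPM, and at 172 CPM in *Ctrl* 4 against 212 to 219.9 CPM. The log2 ratio of *Bhmt* over *Cbs* was 2.37 in *Ctrl* 2 against 2.85 to 2.86 in the other *Ctrl* livers. *Srsf10-kd* 3, which accounts for 3 of the 6, is also the liver with the lowest slope on transcript length, -0.18. It had the highest marker sums for stellate cells and fibroblasts (299 CPM), red blood cells (800 CPM) and cholangiocytes (69.2 CPM), and the lowest periportal sum (7757 CPM). The other marker sums had their extremes in other livers. What part the slope or these sums have in the flagged values was not tested.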

How the results depend on the processing

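The count of all genes past adjusted p 0.05 was 11 with edgeR, 819 with DESeq2, 1814 with limma-voom, 46 without a filter on low counts, 6 with the length correction, 59 with the replicate block, 4 with the replicate block and the length correction, 1342 without *Srsf10-kd* 3 and *Ctrl* 3, and 0 to 544 with 1 liver left out (0 without *Ctrl* 2 or *Srsf10-kd* 1, 2 or 4, 544 without *Ctrl* 3, 64 without *Srsf10-kd* 3), and the fits with 0 had 2154 to 3656 genes at an unadjusted p under 0.05. Of the calls 11 of 11 were lower with edgeR, 62.0% with DESeq2 and 57.1% with limma-voom. Of the 10 members 0 passed in every fit but limma-voom, where 1 did (*Pcyt1a*, -0.39). Of the pathway genes 2 passed with DESeq2, 4 with limma-voom, 4 without *Srsf10-kd* 3 and *Ctrl* 3, and 0 to 3 with 1 liver left out. The cause was not tested.

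Nothing states that replicate numbers pair livers. The deviations of same-numbered livers correlated at -0.18 for number 1 and at 0.21, 0.27 and 0.22 for numbers 2 to 4, so not every pair was over 0.1 and pairing was not assumed. In the replicate block 0 members and 0 pathway genes passed, and *Pcyt1a* was at -0.46. All livers numbered 2 and 3 and *Srsf10-kd* 4 correlated best with their own number, and the other 3 livers did not. With 4 pairs the paired test of the ratios cannot reach the threshold.

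Directions turned for *Gnmt* (-0.028 with limma-voom, -0.13 with the length correction, -0.16 with it and the block, -0.062 to 0.28 with 1 liver left out), *Chka* (0.046 with limma-voom, 0.042 with the length correction, -0.32 to 0.10), *Pcyt2* (0.011 with limma-voom, -0.11 to 0.065 with 1 liver left out) and the *Mat1a*/*Ahcy* ratio (-0.38 to 0.009), all past no threshold. With 1 liver left out the ranges were 0.18 to 0.46 for *Pemt*, -0.56 to -0.32 for *Pcyt1a*, 0.50 to 0.97 for the *Pemt*/*Pcyt1a* ratio, 0.34 to 0.57 for *Pcyt2*/*Pcyt1a* and -0.33 to -0.13 for *Gnmt*/*Pemt*, the last 3 past adjusted p 0.05 only without *Srsf10-kd* 2, the liver nearest *Ctrl* in these ratios, so this is no support for a difference. They were -0.47 to -0.09 for *Mat1a*, 0.04 to 0.35 for *Bhmt*, -0.18 to -0.04 for *Ahcy*, -0.30 to -0.11 for *Cbs*, 0.14 to 0.28 for *Cept1* and 0.22 to 0.68 for *Bhmt*/*Cbs*. Members without overlap were 1 (against 14.3% of all genes), and also 1 without *Srsf10-kd* 3 (16.4%). They were 2 without *Ctrl* 3 (31.9% of all genes) and 2 without both livers (34.9%). These steps were chosen after seeing the data, as was the length-corrected ratio. With the longest transcript, levels were 208 (*Pemt*), 746 (*Bhmt*), 61.1 (*Cbs*), 9.54 (*Chka*), 18.0 (*Pcyt1a*) and 189 RPKM (*Pcyt2*). Of 338 alternative values 294 kept direction and side of the threshold or moved by less than the spread.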
